A study of Homo sapiens with 6 samples.

Results

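GRIN2D and GRID1 are genes of the ionotropic glutamate receptor family, and the regions of differential DNA methylation that the authors listed in them are described here in HepG2, a cell line from a human hepatocellular carcinoma. The members are all rows of the 3 deposited lists that overlap chromosome 19: 48393500-48446000 (GRIN2D) or chromosome 10: 85598000-86368000 (GRID1) on hg38. This gave 10 of 4344 listed rows, 7 in GRIN2D and 3 in GRID1, at 8 of 3313 distinct positions. Cells infected with a DNMT3A-overexpressing lentivirus (3 libraries) were compared with cells infected with a control lentivirus (3 libraries). DNMT3A is a de novo DNA methyltransferase, both groups are the same cell line carrying a lentivirus, the controls being labelled wild type, and whether replicate libraries stem from separate cultures is not labelled. The assay was reduced representation bisulfite sequencing (RRBS), which cuts DNA with MspI at CCGG and so samples CpG-rich fragments. Each list compares same-numbered libraries of both groups, here called pairs 1, 2 and 3, and the files hold no RNA or protein values for DNMT3A or for either receptor.

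GRIN2D encodes GluN2D, a glutamate-binding subunit of NMDA receptors, which are ligand-gated cation channels that also need the glycine-binding subunit GluN1. GluN2D-containing receptors close slowly after glutamate is removed and are known from the developing brain and from interneurons. GRID1 encodes GluD1, a delta receptor that resembles these channels in sequence but acts mainly as a synaptic organizer, bridged to presynaptic neurexins by secreted cerebellins. Both genes are best known from neurons, not from liver cells.

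The upstream sequence of GRIN2D is shown because the gene's listed regions lie away from it. The 250 bases before the annotated start, from RefSeq on GRCh38.p14, plus strand, chr19:48393418-48393667, read 5′ to 3′, with the MspI recognition sites CCGG in capitals:

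GRIN2D upstream: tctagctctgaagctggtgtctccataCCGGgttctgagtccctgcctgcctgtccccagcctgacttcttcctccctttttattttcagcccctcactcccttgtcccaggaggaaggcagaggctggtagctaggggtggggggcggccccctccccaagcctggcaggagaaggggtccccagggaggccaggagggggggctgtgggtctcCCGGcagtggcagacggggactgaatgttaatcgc

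This stretch holds 5 CpG dinucleotides and 2 CCGG sites, which read the same on both strands. Across the 35116 upstream windows of the same length in the table, the median was 11 CpGs, 38.1% held 5 or fewer, and 58.5% held at least 1 CCGG. No listed row fell in it, which says only that no region was called there. The start of the nearest listed region lies 5000 bp downstream of the gene's start. The letters of the listed regions themselves, and the upstream sequence of GRID1, were not used here.

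Methylation was lower with DNMT3A overexpression at 6 of the 7 rows in GRIN2D and higher at all 3 rows in GRID1. In all lists together 18.4% of rows were lower and 81.6% higher. In pairs 1, 2 and 3 the lower rows made up 17.9%, 18.3% and 18.9% of the list and the higher rows 82.1%, 81.7% and 81.1%. Pair 1 listed 2 lower rows in GRIN2D, pair 2 listed 2 lower rows and the only higher one, and pair 3 listed 2 lower rows. GRID1 had 1 row in pair 1, none in pair 2 and 2 in pair 3, so that without pair 3 a single higher row was left. These calls chose the members, so the counts are a description without a test. All 7 rows of GRIN2D lie within its annotated 51.3 kb, whereas 2 of the GRID1 rows lie within its 767 kb and the other just outside it.

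Mapped reads ranged from 25.8 M to 29.9 M (mega-reads) in the overexpressing libraries and from 26.9 M to 29.3 M in the controls, with mapping rates of 76.25% to 76.88% in overexpressing and 75.96% to 76.2% in control libraries. All overexpressing libraries mapped at a slightly higher rate than all controls. MspI cutting efficiency was slightly lower in all of them, at 99.61% to 99.64% against 99.65% to 99.66% in the controls. The part of either in the results was not tested. The lists give no reads per region, so the depth behind each level is unknown and the levels carry no counting interval. The number of CpG sites of a row counts cytosines on both strands. In 108 listed regions that lie within a RefSeq promoter window, that number never exceeded the CpG cytosines of both strands, and it exceeded those of 1 strand in 93.

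**Figure D1:**
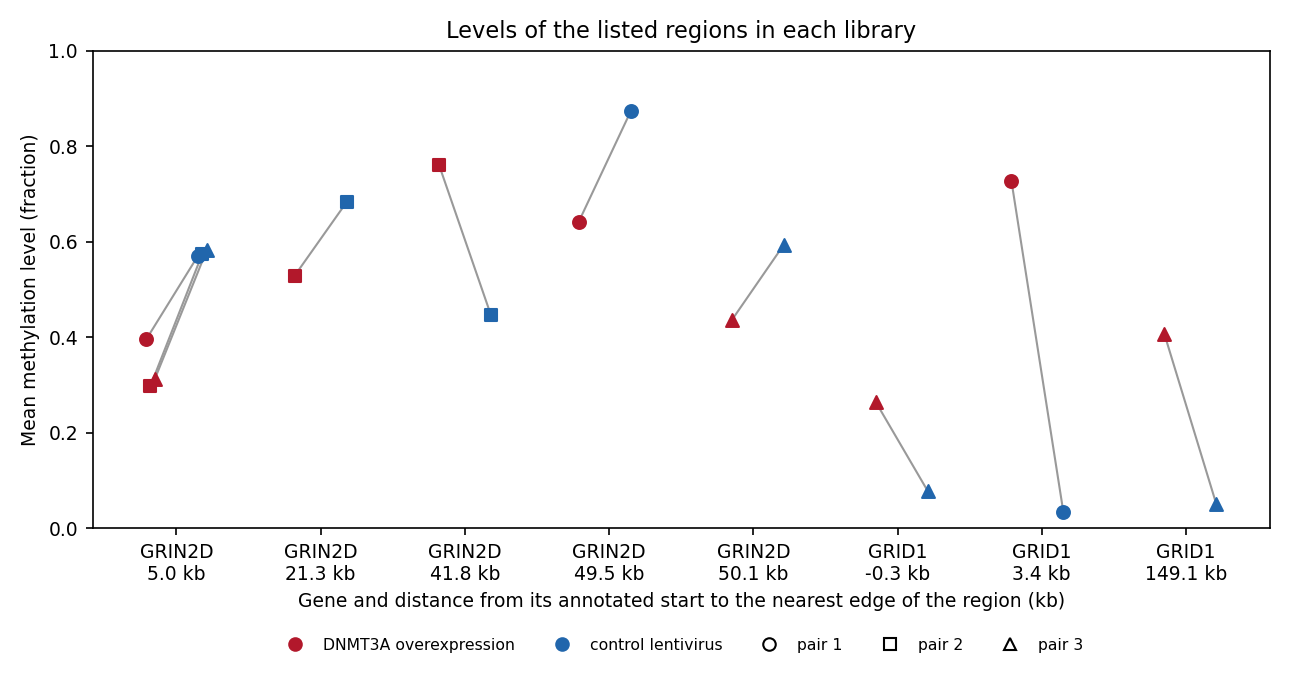
Mean methylation level (fraction, vertical axis) of each listed region in GRIN2D and GRID1, by distance from the annotated start of the gene in kb; red points are DNMT3A-overexpressing libraries, blue points control libraries, symbols mark the pair and grey lines join the 2 libraries of a pair. The GRIN2D position at 5.0 kb is the only one with 3 pairs, its red points lying between 0.298 and 0.395 and its blue points between 0.571 and 0.582.

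One position of GRIN2D was listed in every pair. At chromosome 19: 48398668-48398870, inside the gene and 5.0 kb from its start, the level was 0.395, 0.298 and 0.312 in overexpressing libraries 1, 2 and 3, against 0.571, 0.575 and 0.582 in control libraries 1, 2 and 3. The highest overexpressing library lay 0.176 below the lowest control. The position was called in every pair, and how many other regions listed in all pairs show such a gap was not counted. The control levels spanned only 0.0114, while the overexpressing levels spanned 0.0971, and library 1 stood above the other two. The difference was -0.176, -0.277 and -0.270 in pairs 1, 2 and 3, a mean of -0.241 ± 0.0566 (SD, n = 3 pairs). Overexpressing libraries 2 and 3 thus held 51.8% and 53.7% of the level of their own controls, and library 1 held 69.2%.

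The boundaries of this position differed between pairs. Pairs 2 and 3 listed the same 203 bp with 76 CpG sites, whereas pair 1 listed 48398732-48398870, 139 bp with 57 sites. Pair 1 thus leaves out the first 64 bp with 19 sites, so its smaller difference was measured over a smaller region, and the part this plays was not tested. The position lies 1256 bp beyond the higher coordinate of KDELR1, whose direction of transcription was not analysed here. KDELR1, a gene for a receptor that retrieves proteins to the endoplasmic reticulum, overlaps the first 3745 bp of GRIN2D. GRIN2D was the only annotated gene within 1 kb of each of its 7 rows. Whether the position is exonic or intronic was not analysed here.

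Few regions of the series held as many sites. The 76 sites ranked 8th of 1433 rows in pair 2 and 9th of 1428 in pair 3, where the median was 12 in both lists, and the 57 sites ranked 24th of 1483 in pair 1, where the median was 11. Density was 37.4 sites per 100 bp in pairs 2 and 3 and 41.0 in pair 1, against list medians of 11.1 and 10.9. On the same count of both strands, the upstream sequence printed above holds 4 sites per 100 bp. By the authors' area score, whose definition is not stated, the position was 1st of 270 losses in pair 3 (-651), 3rd of 262 in pair 2 (-675) and 8th of 266 in pair 1 (-318). By the size of the difference it ranked much lower, 131st, 128th and 211th of the same lists of losses in pairs 3, 2 and 1. The position thus combined a high score and many sites with a difference near or below the usual size, the median loss being -0.267, -0.269 and -0.277 in pairs 3, 2 and 1.

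**Figure D2:**
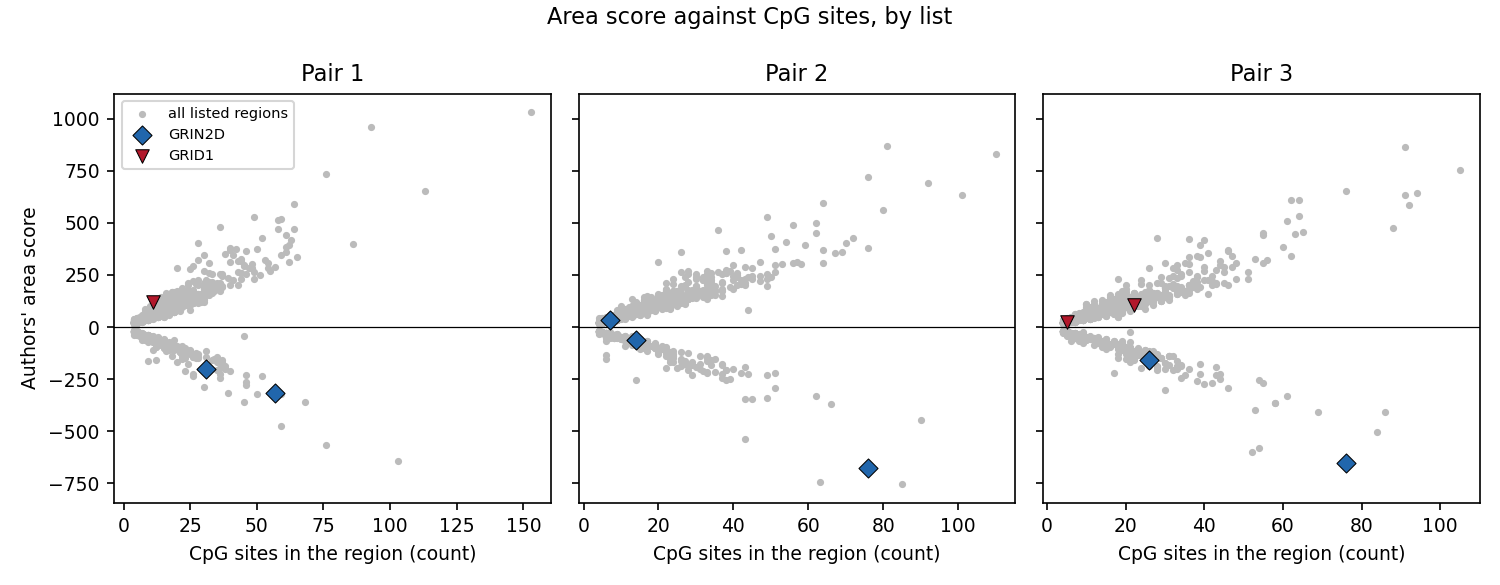
The authors' area score (vertical axis) against the number of CpG sites of each listed region (horizontal axis) in pairs 1, 2 and 3; grey points are all listed regions, blue diamonds GRIN2D and red triangles GRID1. The GRIN2D position with 57 to 76 sites lies among the most negative scores, at -318, -675 and -651 in pairs 1, 2 and 3, while the GRID1 regions hold 5 to 22 sites and lie between 23.3 and 119.

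Recurrence set this position apart from the other members as a plain count. Of 3313 distinct regions, 8.21% were listed in all 3 pairs and 21.8% in at least 2, while 1 of the 8 distinct positions in GRIN2D and GRID1 was listed in all 3 and no other in more than 1. Of the 272 regions listed in all pairs, 264 were higher in every pair and 2, or 0.735%, lower in every pair, this one among them. Its mean control level of 0.576 ± 0.00577 (SD, n = 3) ranked 10th of the 272 from the top, where the median was 0.150. The SD between its control libraries ranked 35th from the smallest, below the median of 0.0221, and that between its overexpressing libraries, 0.0524, ranked 192nd, above the median of 0.0344. The size of its mean difference ranked 178th of 272.

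**Figure D3:**
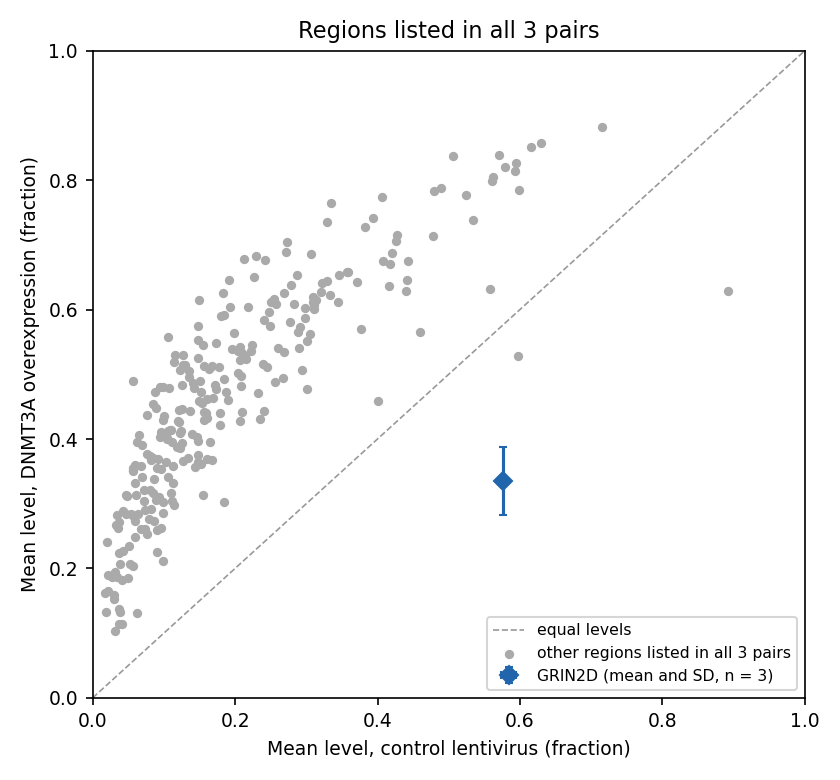
Mean level in DNMT3A-overexpressing libraries (vertical axis, fraction) against that in control libraries (horizontal axis, fraction) for the 272 regions listed in all 3 pairs; the blue diamond is GRIN2D with its SD in both groups (n = 3), and the dashed line marks equal levels. GRIN2D, at 0.335 against 0.576, is 1 of 3 regions below the line.

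The regions most like the GRIN2D position were sought by distance over the 6 libraries, without a reference for how large a distance is usual. Among 238 other regions listed in all pairs with a gene within 1 kb, the smallest Euclidean distances over the 6 levels were 0.438 for a region of the noncoding gene LOC105379482 (chromosome 20: 30585393-30585628), 0.497 for KCTD12, an auxiliary subunit gene of GABA-B receptors (chromosome 13: 76886235-76886402), and 0.549 for EMX1, a forebrain homeobox gene (chromosome 2: 72924553-72924707). The region at EMX1 was higher in every pair, averaging 0.570 with overexpression and 0.377 in the controls, and the other two went in opposite directions between pairs. None of these 3 shared the direction of GRIN2D in every pair. Only 2 of the 272 regions listed in all pairs had that direction throughout, GRIN2D included.

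A pair of losses lay near the far end of GRIN2D, each in a different pair. At chromosome 19: 48443196-48443370, 1.56 kb before the annotated end, the level was 0.642 in overexpressing library 1 and 0.873 in control library 1, over 31 sites. At chromosome 19: 48443777-48443864, 1.07 kb before the end, it was 0.435 in overexpressing library 3 and 0.593 in control library 3, over 26 sites. The regions are 406 bp apart and do not overlap, so neither repeats the other, and the levels of the remaining libraries there were not listed. The first had a high control level, the 23rd highest among 266 losses of pair 1. The next gene, GRWD1, a ribosome biogenesis factor, starts 1052 bp beyond the end of GRIN2D.

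Both remaining rows of GRIN2D came from pair 2. In the middle of the gene, at chromosome 19: 48414961-48415046, the level was 0.529 in overexpressing library 2 and 0.683 in control library 2, over 14 sites. This loss, of 0.154 in size, was among the smaller ones, 229th by size of 262 in its list. The only gain, at chromosome 19: 48435486-48435569, stood at 0.761 in overexpressing library 2 and 0.447 in control library 2, over 7 sites, the fewest of any row in the gene. Its density of 8.33 sites per 100 bp was also the lowest in the gene, where the losses had 16.3 to 41.0.

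Losses of this number are uncommon among genes. Of 19970 protein-coding genes, 8.88% had a listed row within 1 kb, and 477 had a lower one. GRIN2D and MEGF6 had 6 lower rows each, the most of any protein-coding gene, in GRIN2D out of 7 rows and in MEGF6 out of 13. Of the 42 genes with at least 7 rows, GRIN2D was the only one in which most rows were lower. That cut equals GRIN2D's own count of rows and leaves out genes with fewer. Below it, DNMT3A and TERT were lower in 4 of 4 rows each, and EPB41L3 in 4 of 5. The 6 lower rows of GRIN2D include 3 of the same position, so they stand for 4 positions. GRIN2D was picked from these lists, and genes were not matched for length or CpG content, so the ranks describe it and test nothing.

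**Figure D4:**
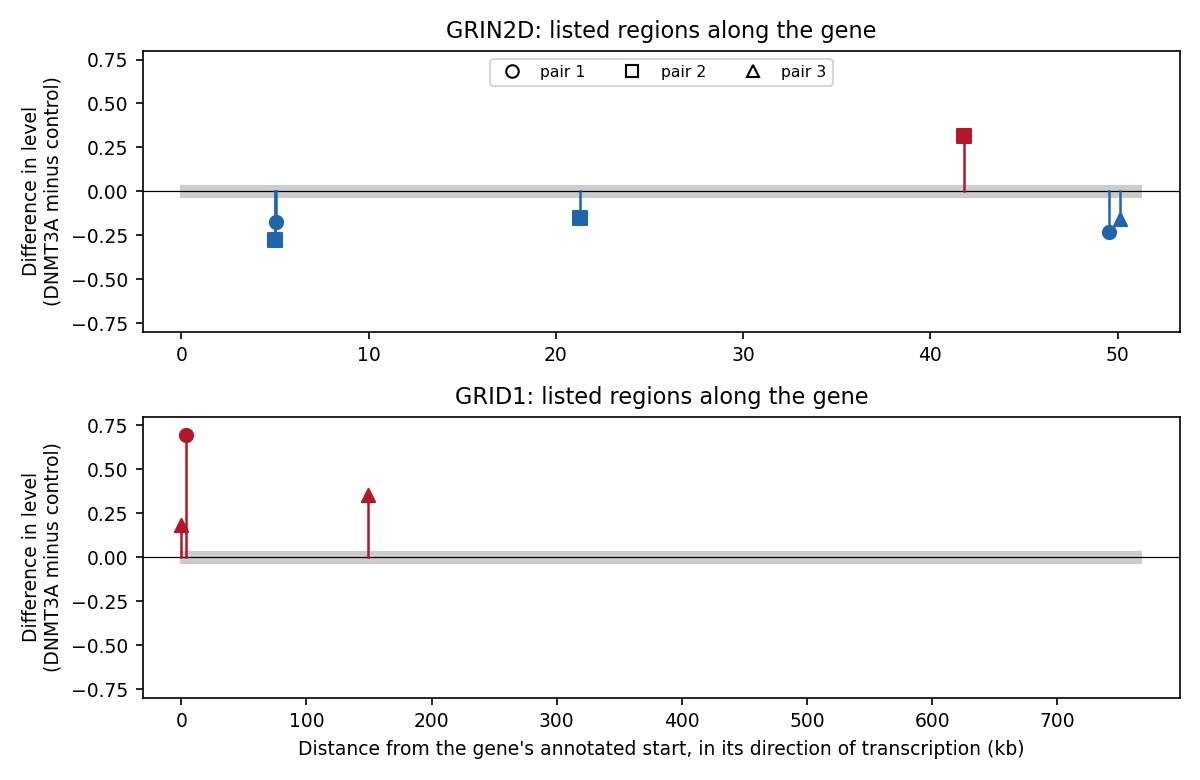
Difference in methylation level (fraction, DNMT3A overexpression minus control, vertical axis) of each listed region by its distance from the annotated gene start in kb (horizontal axis), for GRIN2D above and GRID1 below; the grey bar is the gene, symbols mark the pair, red is higher and blue lower. Lower regions of GRIN2D lie from 5.0 kb to 50.1 kb, and the 3 regions of GRID1 lie between 0.297 kb before its start and 149 kb into the gene.

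The regions of GRID1 had low control levels. GRID1 is transcribed from the minus strand, so its start is at its higher coordinate, 86366795. The largest gain, at chromosome 10: 86363322-86363373, 3.42 kb inside the gene, stood at 0.727 in overexpressing library 1 and 0.0336 in control library 1. This difference of 0.693 was the 4th largest of 1217 gains in pair 1, over 52 bp and 11 sites. It was listed in pair 1 alone, and the levels of the other 4 libraries there were not listed, so it has no replicate check.

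The region nearest to the start of GRID1 lay outside the annotated gene. At chromosome 10: 86367092-86367169, 297 bp upstream of the start, the level was 0.264 in overexpressing library 3 and 0.0775 in control library 3, a difference of 0.186. It is the densest of the 3, with 22 sites in 78 bp or 28.2 per 100 bp, and its gain was smaller than the median of 0.265 in pair 3. The region lies 3.72 kb from the pair 1 region, so both gains fall within a few kb of the start without overlapping. With the extent of the gene alone, this row would not count as GRID1, leaving 2 higher rows.

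The last GRID1 region lay deep in the gene. At chromosome 10: 86217616-86217672, 149 kb from the start, the level was 0.407 in overexpressing library 3 and 0.0509 in control library 3. It held only 5 sites in 57 bp, the fewest of the 10 rows, and its area score of 23.3 ranked 1088th of 1158 gains in pair 3, although its difference of 0.356 ranked 240th. No listed row fell in the remaining 618 kb towards the far end of GRID1, which does not show that methylation was the same there.

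Control levels differed between the listed rows of both genes. Control levels were 0.447 to 0.873 over the 7 rows of GRIN2D and 0.0336 to 0.0775 over the 3 rows of GRID1, with no overlap. The median control level was 0.587, 0.596 and 0.547 at losses of pairs 1, 2 and 3, and 0.184 and 0.209 at gains of pairs 1 and 3. The GRID1 rows thus had control levels below those of the usual gain. A region with a control level near 0 can hardly be called lower, so near 0 direction and control level cannot be told apart. This limit does not apply to the GRIN2D rows, whose only gain was at 0.447 in control library 2. The part of control level in the direction was not tested. With overexpression the 7 rows of GRIN2D stood at 0.298 to 0.761, and its losses alone at 0.298 to 0.642. The 3 rows of GRID1 stood at 0.264 to 0.727, so that levels of both genes overlapped in the overexpressing libraries.

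The nearest listed rows on either side of both windows are given here, and the density of calls around the windows was not analysed. The nearest rows outside the GRIN2D window were a loss in pair 2 at ODAD1, a gene of motile cilia, 96.0 kb away (0.437 in the overexpressing and 0.725 in the control library), and a gain in pair 3 within 1 kb of FAM83E and RPL18, 169 kb away on the other side (0.804 and 0.394). Beyond the GRID1 window the nearest was a gain in pair 2 at BMPR1A, a receptor gene for bone morphogenetic proteins, 558 kb away (0.951 in the overexpressing and 0.493 in the control library). On the other side the nearest row was a gain in pair 3, 4095 kb away (0.412 and 0.178), with no protein-coding gene within 1 kb.

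Other genes of glutamate signalling were taken from 5 lists, which hold 83 genes besides GRIN2D and GRID1. A listed row was found within 1 kb of 14 of the 83, or 16.9%, beside 8.88% of all protein-coding genes, which were not matched for length or CpG content. Without pair 1 the count was 8, but the share of all protein-coding genes was not recounted without pair 1, so 8.88% is no like value for it. Of the 14 genes, 12 had higher rows only and 2 lower rows only, and 26 of their 28 rows were higher, beside 81.6% of all listed rows. A region with the same direction in 2 or more pairs was found in 4 of the 83 genes, beside 2.16% of all protein-coding genes. With GRIN2D and GRID1, which were picked for their rows, 16 of the 85 genes had a row.

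Among the 18 ionotropic receptor genes, GRIN2C was the only one listed besides GRIN2D and GRID1. GRIN2C, which encodes the NMDA receptor subunit GluN2C, had 1 gain in pair 3, at 0.837 in the overexpressing and 0.656 in the control library (chromosome 17: 74861031-74861223, 51 sites). Of the 8 metabotropic receptor genes, which encode G protein-coupled glutamate receptors, GRM2 alone was listed, at 0.254 and 0.107 in overexpressing and control library 1 (chromosome 3: 51707011-51707162). Of 22 genes for auxiliary subunits and delta receptor partners, 4 had a row each. CBLN1, a cerebellin that binds delta receptors, was higher in pair 1, at 0.637 against 0.294 in its control, as were CACNG4 and SHISA7 in other pairs, while GSG1L, an AMPA receptor auxiliary subunit, was lower in pair 1, at 0.0189 against 0.177.

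Of the 18 postsynaptic scaffold genes, 5 had a listed row. Their 16 rows stand for 10 distinct positions, 7 of the rows lying at 3 positions of DLGAP1, and all were higher, the direction of 81.6% of rows in all lists. DLGAP1, a scaffold gene of the postsynaptic density, had a region listed in all pairs, at chromosome 18: 3620718-3620854, with levels of 0.512, 0.580 and 0.542 in overexpressing libraries 1, 2 and 3, against 0.217, 0.127 and 0.123 in control libraries 1, 2 and 3. Its mean difference was 0.389 ± 0.0833 (SD, n = 3 pairs). A further pair of DLGAP1 regions was higher in 2 pairs each, by means of 0.348 (chromosome 18: 3603455-3603509) and 0.230 (chromosome 18: 3617805-3617910). DLGAP4 (chromosome 20: 36471210-36471285) was higher by 0.312 and 0.271 in pairs 2 and 3, and SHANK1, which links receptor complexes to the cytoskeleton (chromosome 19: 50720430-50720512), by 0.176 and 0.256 in pairs 1 and 2.

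In the 19 genes of glutamate and D-serine transport and metabolism, 3 were listed. SLC1A7, a glutamate transporter gene, had a region that was higher in pairs 1 and 3, by 0.265 and 0.225 (chromosome 1: 53116643-53116780). SLC17A8, a vesicular glutamate transporter gene, was higher in pair 1, at 0.330 against 0.108 in its control. SLC1A6, another glutamate transporter gene, was lower in pair 3, at 0.267 against 0.521 in its control. Over the 5 lists, the GRIN2D position at 5.0 kb was the only loss listed in more than 1 pair.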

How the data were processed

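RRBS libraries of HepG2 cells were taken as the authors deposited them, on genome build hg38, per the submitters' processing notes. Aligner, region caller, thresholds and conversion rate are not given in the sources consulted. Per the file headers, the authors' lists give for each called region a mean methylation level in both libraries of a pair, a fraction from 0 to 1, and the deposited count of CpG sites. The area score and the signed difference, overexpressing minus control, are the authors' values as well. Mapped reads are deposited counts and mapping rates deposited percent values. Only called regions are listed, with levels from the very reads that gave the call, so listed differences tend to be larger than a fresh measurement would give.

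Groups and numbers were taken from the labels. Rows that overlapped by at least 1 bp were merged into distinct regions, with levels averaged by CpG sites where a pair had several rows (Python 3.11.15, pandas 2.3.3). Merging was tested on simulated lists of well separated regions only, so chained overlaps and several rows per pair were not covered. Genes are those of the RefSeq table of GRCh38.p14 on chromosomes 1 to 22 and X, within 1 kb. That table gives no exons or strand; of both genes, GRIN2D matched the RefSeq upstream sequences. Members and gene lists were chosen with earlier results of these data known, so values are means ± SD and ranks without tests. Named are every row of both genes, other receptor genes with any row, list genes listed in at least 2 pairs, and the 3 regions most alike. Other list genes, and MEGF6, DNMT3A, TERT and EPB41L3, were named after their values were seen.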

Additional observations from a re-analysis of the deposited data

How the results depend on the processing

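No paired analysis was possible because the calls that chose the members come from the same comparison, so no result here comes from a test; the mean and SD of the differences over pairs are descriptions. The GRIN2D position listed in all pairs kept its direction under every alternative run, at -0.223 to -0.273 without 1 pair each and at -0.976 as a logit difference (offset 0.01). With an absolute difference of at least 0.2, 3 lower rows of GRIN2D were left of 6, while leaving out 1 pair left 4 each time. The pair 1 row of the position listed in all pairs, at -0.176, falls below that cut. Only pairs 2 and 3 would then list this position. The higher row of GRIN2D numbered 0 to 1 and the higher rows of GRID1 1 to 3 when 1 pair was left out, since pair 2 holds the GRIN2D gain and pair 3 holds 2 of the GRID1 rows. The count of glutamate genes with a row was 16, 5 when a region needed the same direction in 2 or more pairs, and 10 to 15 without 1 pair each. The share of all protein-coding genes was not recounted without 1 pair each. The count of shared positions was 1 in GRIN2D and 0 in GRID1 with an overlap of at least 50% of both regions, with a gap of up to 100 bp, and without any 1 pair. The lists give no depth per region, so thin coverage of a row would not show, which bears most on rows of 5 to 11 sites seen in 1 pair.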
